A study of Mus musculus with 6 samples.

Results

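The replication-dependent histone genes supply the core histones H2A, H2B, H3 and H4 and the linker histone H1 that package newly copied DNA. They were chosen here by name, as every gene whose symbol starts with Hist1h, Hist2h, Hist3h or Hist4h, which gave 64 of the 20631 genes measured. By histone type these are 6 H1, 16 H2A, 17 H2B, 12 H3 and 13 H4 genes. Hist3h2bb-ps, a pseudogene by its symbol, is counted among the H2B genes. The symbol alone decided membership, although earlier results of these data were known when the members were chosen.

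The cells were neuromesodermal progenitors (NMPs), bipotent cells of the caudal embryo that form spinal cord and paraxial mesoderm. They were made from mouse ESCs, whose strain is 129 R1 by the sample labels and C57BL/6 by the study's methods, by 2 days in bFGF and 1 further day in bFGF with CHIR99021, a WNT agonist. All 3 groups had this culture in common, and bFGF and CHIR99021 were then withdrawn for 2 h while the cells received 25 nM retinoic acid (RA), 1 µM RA or the DMSO vehicle, with 2 dishes each. The question asked of these genes was whether RA moved them beyond the spread between dishes. RA at 1 µM is above the physiological range, the cells are of a single ESC line, and the dishes of a group are technical replicates by the study's methods, so that every p-value measures the spread between dishes of a single experiment.

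Most histone mRNAs of this family are made in S phase and, unlike other mRNAs, do not end in a poly(A) tail. Their 3' end is formed by cleavage just after a short stem-loop, which is bound by the stem-loop binding protein SLBP, with the help of the U7 small nuclear RNP. A library made from poly(A)-selected RNA loses most of them, whereas total RNA depleted of ribosomal RNA, as sequenced here, keeps them.

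The stem-loops are shown because they are what makes this family non-polyadenylated. The sites below were read from GENCODE M21 transcripts (GRCm38), capitals mark the stem-loop, and the flanks are up to 5 bases on each side. They belong to the members of highest level that have a stem-loop in their transcript model for H1, H2A, H2B and H3, to the highest H4 gene, and to H4 genes to which the results return.
Hist1h1d (H1, chr13:23555787-23555802, + strand): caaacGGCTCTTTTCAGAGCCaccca
Hist3h2a (H2A, chr11:58955172-58955187, + strand): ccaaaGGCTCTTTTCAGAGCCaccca
Hist1h2be (H2B, chr13:23585531-23585546, - strand): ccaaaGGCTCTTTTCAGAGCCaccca
Hist1h3f (H3, chr13:23544932-23544947, + strand): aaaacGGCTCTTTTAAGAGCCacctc
Hist1h4d (H4, chr13:23581950-23581965, + strand): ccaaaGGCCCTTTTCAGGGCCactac
Hist1h4a (H4, chr13:23760800-23760815, - strand): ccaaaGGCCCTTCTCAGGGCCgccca
Hist1h4j (H4, chr13:21735437-21735452, + strand): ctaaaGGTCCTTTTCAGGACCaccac
Hist1h4m (H4, chr13:21812129-21812144, + strand): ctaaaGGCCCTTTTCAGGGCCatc
Hist1h4n (H4, chr13:21831798-21831813, - strand): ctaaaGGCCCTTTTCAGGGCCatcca

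The search was for 16 bases, read 5′ to 3′ on the transcript, that can form a stem of 6 base pairs opening with GG, ending with CC and topped by a T-A pair, around a loop of 4 bases written TNTN. It found a stem-loop in 44 of the 63 members that have a coding transcript model. Many models stop soon after the coding sequence. Among the 45 models with 60 bases or more after the stop codon the number was 43, the exceptions being Hist1h2bc and Hist2h2be. Over all 55341 genes of the annotation, 155 genes (0.28%) held a match anywhere in a transcript. The stem-loop started 21 to 58 bases after the stop codon, with a median of 31. The commonest form, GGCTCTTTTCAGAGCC, was found in 24 members of the H1, H2A, H2B and H3 types. The form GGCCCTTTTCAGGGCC was found in 7 members, all of them H4 genes.

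The members lie in few places of the genome. By the positions in the deposited files (mm10), 50 are on chromosome 13, of which 19 lie within chr13:21715713-22043658 and 31 within chr13:23531044-23934913. A further 10 are on chromosome 3, 3 on chromosome 11 and 1, Hist4h4, on chromosome 6. The type is reflected in the promoters, taken as the 300 bases from 250 before to 50 after the start in RefSeq GRCm38.p6, which were matched for 58 members. The highest H2B and the highest H4 promoter are shown as examples of letters whose frequency differs between H4 genes and the other types. Capitals mark 4 short motifs on either strand, whose letters and shares follow.
Hist2h2bb (H2B, chr3:96269450-96269749, + strand): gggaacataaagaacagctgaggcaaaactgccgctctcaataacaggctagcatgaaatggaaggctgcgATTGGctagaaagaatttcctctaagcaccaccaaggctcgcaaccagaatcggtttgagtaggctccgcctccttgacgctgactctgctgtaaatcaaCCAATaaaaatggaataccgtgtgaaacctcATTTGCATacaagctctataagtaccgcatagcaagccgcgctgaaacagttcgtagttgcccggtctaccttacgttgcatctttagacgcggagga
Hist1h4d (H4, chr13:23581318-23581617, + strand): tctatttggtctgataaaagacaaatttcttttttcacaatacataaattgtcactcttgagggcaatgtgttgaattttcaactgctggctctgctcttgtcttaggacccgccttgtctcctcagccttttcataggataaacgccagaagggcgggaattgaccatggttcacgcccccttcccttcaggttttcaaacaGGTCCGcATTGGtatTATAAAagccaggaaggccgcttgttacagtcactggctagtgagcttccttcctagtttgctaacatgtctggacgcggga

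The motif CCAAT, the letters of the CCAAT box, was in 84.5% of member promoters and in 37.4% of all 32851 promoters. It was in every matched H1, H2A, H2B and H3 promoter but in only 3 of the 12 H4 promoters. GGTCCG, a short run common in H4 promoters, was in 11 of 12 H4 promoters, in 13 of the 58 members in all (22.4%) and in 8.25% of all promoters. ATTTGCAT, the octamer bound by POU factors, was in 7 H2A and 7 H2B promoters and in no other type (24.1% of members, 1.74% of all promoters). Some H2A and H2B genes lie head to head, so that their promoter windows can overlap. TATAAA was in 60.3% of members and 13.6% of all promoters. A direct repeat of AGGTCA with 5 or with 2 bases between the copies was in no member promoter and in 0.00913% of all promoters for either spacing, which says only that these letters are not in these windows.

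Near-identical sequence limits what the single genes can show. By their transcript models each of the 13 H4 genes encodes the same protein, the 12 H3 genes encode 3 proteins, and the 16 H2A genes 9. Among the H3 models, that of Hist2h3c1 alone has 181 codons, where the others have 136, and it is counted as a separate protein. The median share of 50-base windows of the coding sequence that also occur in transcripts of another gene was 11% for H1, 84.2% for H2A, 76.4% for H2B, 85.4% for H3 and 71.2% for H4. In 9 members every window was shared, and in 5 none was. The reads were 50 bases long, and the authors divided shared reads among transcripts by expectation-maximization. The members with a mean estimated count under 10 were Hist2h2aa1, Hist2h2aa2, Hist2h3c1 and Hist2h3c2, and every window of each was shared. These 4 members were not tested, which left 60 members among the 15143 genes tested.

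Together the members took 1.04% to 1.11% of all estimated counts in a sample, of totals between 31753556 and 42029348. Levels are given as RPKM, reads scaled for transcript length and sequencing depth, summed over a gene's transcripts, which allows genes of unequal length to be compared. Of the 64 members, 40 had a mean RPKM above 100 and 10 above 500, and 5 were among the 100 genes of highest RPKM in these cells. H4 genes made up 29.0% of the summed RPKM, H2B genes 28.0%, H1 genes 20.6%, H3 genes 12.1% and H2A genes 10.4%.

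Hist2h2bb (chr3:96269700-96270192) was the highest member, with RPKM 1708 and 1774 in DMSO, 1807 and 1678 after 25 nM RA and 1867 and 1890.0 after 1 µM RA. Its mean over the 6 samples, 1787 RPKM, was 2.38 times that of the next H2B gene, Hist1h2be (751). It was followed by the H4 gene Hist1h4d (1100.1 RPKM) and the linker histone gene Hist1h1a (1022 RPKM), and these 3 genes held 23.3% of the members' RPKM. The remaining leading genes of their types were Hist1h1d and Hist1h1b for H1 (656 and 618 RPKM), Hist3h2a, Hist1h2ak and Hist2h2ac for H2A (323, 306 and 215 RPKM), Hist1h2bb for H2B (424 RPKM), Hist1h3f, Hist1h3b and Hist1h3g for H3 (457, 274 and 229 RPKM), and Hist4h4 and Hist1h4h for H4 (806 and 573 RPKM). Members best known from the testis were low: the linker histone gene Hist1h1t had 6.13 RPKM, the H2B gene Hist1h2ba 28.1 RPKM and the H2A gene Hist1h2aa 0.985 RPKM.

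**Figure D1:**
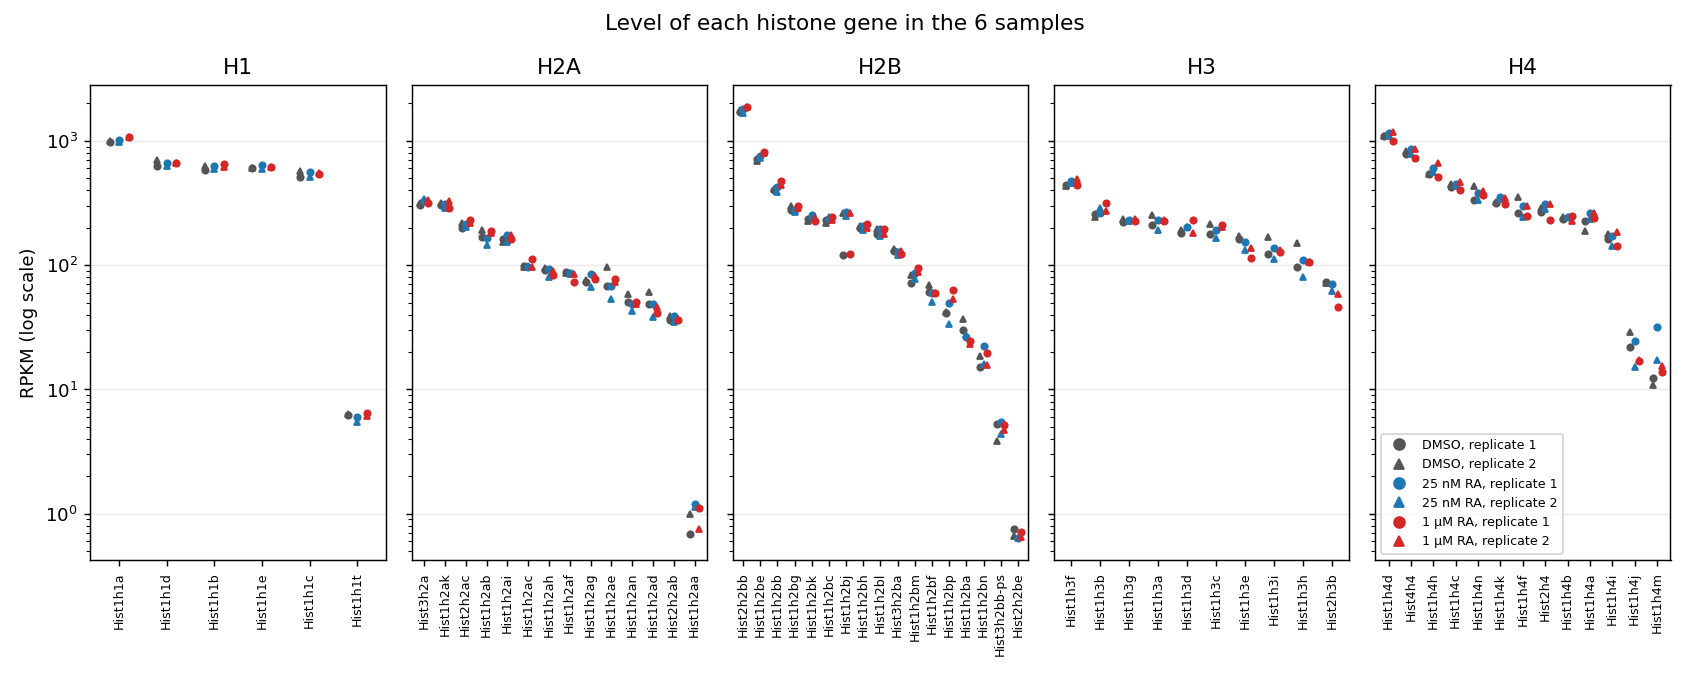
RPKM (vertical axis, log scale) of the 60 tested members in each of the 6 samples, in 5 panels by histone type and ordered by mean level within a type. Colours give the group and symbols the replicate. Mean levels run from 0.675 RPKM (Hist2h2be) to 1787 RPKM (Hist2h2bb), and for most genes the 6 samples lie close together, with Hist1h2bj and Hist1h4m as visible exceptions.

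Summed over all 64 members, RPKM was 16076 and 17085 in DMSO, 17261 and 16080 after 25 nM RA and 16640 and 17522 after 1 µM RA. The groups overlapped. The RA means were above the DMSO mean by 0.543% (25 nM) and 3.02% (1 µM), whereas dishes of the same group differed by 6.27% (DMSO), -6.84% (25 nM) and 5.30% (1 µM), replicate 2 against replicate 1. Thus the summed level changed by less with RA than between dishes. In bulk RNA, a different share of cells in S phase and a different amount of histone mRNA per cell cannot be told apart. With 2 samples a group no exact permutation test of a sum can reach p = 0.05, so that none was made.

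The same held for most types. H2A sums were 1695 and 1806 in DMSO, 1762 and 1632 after 25 nM RA and 1734 and 1796 after 1 µM RA. H3 sums were 1949 and 2128 in DMSO, 2063 and 1917 after 25 nM RA and 2049 and 2053 after 1 µM RA. For both types the RA samples lay among or next to the DMSO samples, with overlap at each dose.

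H2B was the type with the largest difference. Its sums were 4423 and 4668 in DMSO, 4795 and 4499 after 25 nM RA and 4847 and 4910.5 after 1 µM RA, so that both samples with 1 µM RA lay above both DMSO samples, by 7.32% in the means. The DMSO dishes themselves differed by 5.55%. The H1 sums, 3324 and 3515 in DMSO, 3507 and 3310.0 after 25 nM RA and 3555 and 3531 after 1 µM RA, also did not overlap at 1 µM RA, with a difference of 3.62% in the means against 5.74% between the DMSO dishes.

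H4 behaved differently between dishes. Its sums were 4685 and 4968 in DMSO, 5134 and 4721 after 25 nM RA and 4456 and 5231 after 1 µM RA. The lowest and the highest H4 sum of the 6 samples were thus the 2 dishes with 1 µM RA, 17.4% apart, while the means of the 1 µM RA and DMSO groups differed by 0.362%. In the 1 µM RA group 12 of the 13 H4 genes were higher in replicate 2, with a median difference of 0.21 (log2), beside 49.5% of all genes tested. Of the other types, H2B had 4 of 17 genes higher in that dish, H1 had 1 of 6, H2A 8 of 14 and H3 6 of 10.

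**Figure D2:**
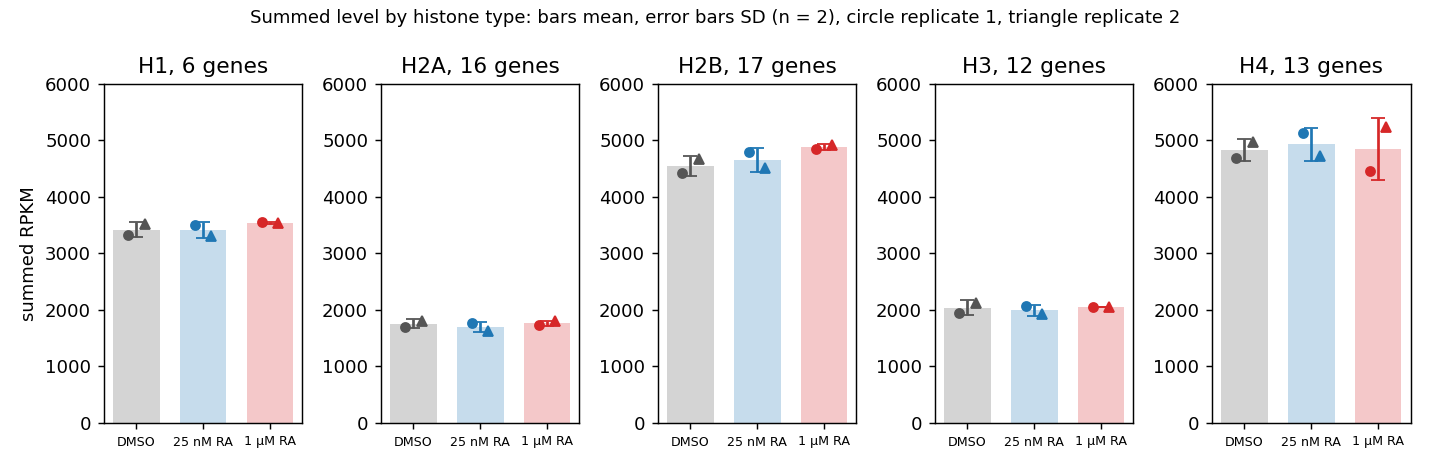
Summed RPKM (vertical axis) of each histone type in the 3 groups, with bars for the mean, error bars for the SD (n = 2) and points for the dishes. The H2B points with 1 µM RA lie above those with DMSO, and the H4 points with 1 µM RA lie farthest apart, at 4456 and 5231.

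Gene by gene, the duplicates of members differed more than those of other genes. The mean absolute difference between duplicates, in log2 CPM (counts scaled by library size and TMM), had a median of 0.14 over the 60 members and 0.09 over all 15143 genes, and 44 of the 60 members lay above the median of all genes. The biological coefficient of variation, edgeR's estimate of the spread between dishes, was above the trend for genes of the same abundance in 49 of the 60 members (5168 of the 15143 genes in all), with a median of 0.0442.

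The members also tended to shift together from dish to dish. In the DMSO group 47 of 60 members were higher in replicate 2, beside 48.4% of all genes. In the 25 nM RA group 51 of 60 were lower in replicate 2, where 50% of all genes were higher. In the 1 µM RA group the members were divided, with 31 higher and 29 lower. All 6 H1 genes were higher in replicate 2 of DMSO and lower in replicate 2 of 25 nM RA. Members are not independent of each other, since shared reads and shared dishes tie them, and these counts have no test.

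Lists related to histones, DNA replication and total RNA varied less or about as much between duplicates. Among the cell type markers given below, the 2 committed neural markers tested had a larger median absolute difference, 0.22. The listed genes of DNA replication had a median absolute difference between duplicates of 0.04, those of histone mRNA transcription and processing 0.05 and the replication-independent histone variants 0.05, each below that of all genes. The 3 tested non-coding RNAs among those kept by total RNA libraries (Rpph1, Rmrp and Terc) had a median of 0.15, near that of the members. Rpph1, the RNA of RNase P, had RPKM 20511 and 21876 in DMSO, 22346 and 20041 after 25 nM RA and 19322 and 22619 after 1 µM RA. It was thus higher, lower and higher in replicate 2, like the H4 sum. Rmrp, the RNA of RNase MRP, went the opposite way in each group, with 13216 and 12322, 13587 and 15180.4, and 14156 and 12528 RPKM. Whether the differences between dishes came from the cells or from the libraries was not tested.

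**Figure D3:**
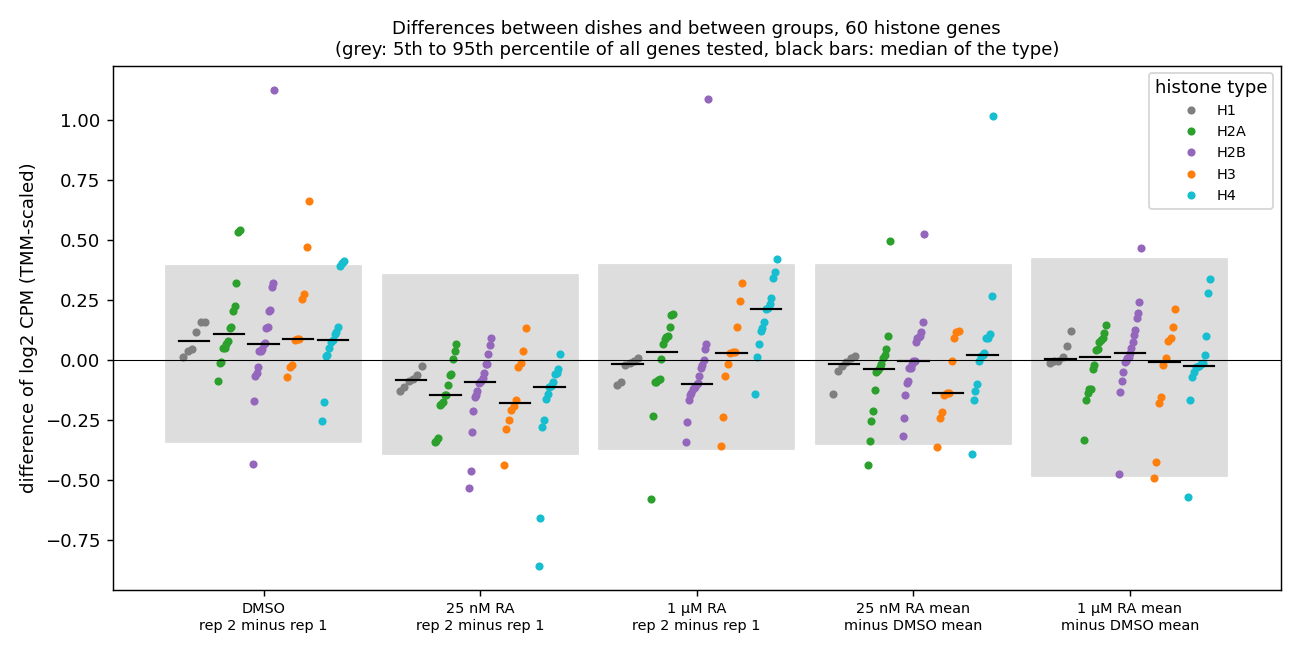
Difference in log2 CPM (vertical axis) for the 60 tested members, coloured by type, between the dishes of each group (first 3 columns) and between group means (last 2 columns). Grey boxes span the 5th to 95th percentile of all genes tested and black bars are type medians. All type medians lie above 0 between the DMSO dishes and below 0 between the 25 nM RA dishes, and the H4 median of 0.21 between the 1 µM RA dishes stands above the others.

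Single members were compared between groups with edgeR's likelihood ratio test and p-values adjusted by the Benjamini-Hochberg method over all genes tested, called at an adjusted p under 0.1. With 25 nM RA, 9 of 60 members were called (15%), 2 higher and 7 lower than DMSO, beside 8.05% of all genes tested (4.50% higher and 3.55% lower). With 1 µM RA, 13 members were called (21.7%), 7 higher and 6 lower, beside 19.7% of all genes (8.54% higher and 11.2% lower), so that the share of members was near that of all genes. Between the doses 5 members were called (8.33%), 3 higher and 2 lower with 1 µM RA, beside 3.41% of all genes (0.792% higher and 2.62% lower). The doses share their DMSO samples.

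Differences that cleared the spread between dishes were no more frequent among members than among all genes. With 25 nM RA the samples of a group did not overlap those of DMSO in 24 of 60 members (40.0%), beside 44.8% of all genes, and with 1 µM RA in 21 (35.0%), beside 54.3%. The difference of means was larger than both differences between duplicates in 19 members with 25 nM RA (31.7%, beside 33.3%) and in 17 with 1 µM RA (28.3%, beside 42.3%). Between the doses the counts were 19 without overlap (31.7%, beside 43.6%) and 13 beyond the duplicates (21.7%, beside 31.5%).

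The changes were small. The median log2 fold change of the 60 members was -0.012 with 25 nM RA and 0.00089 with 1 µM RA. A single member in each comparison exceeded 0.5 in size: Hist1h4m with 25 nM RA and between doses, and Hist1h4j with 1 µM RA. The 95% interval of the fold change lay wholly between -0.5 and 0.5 for 52 of the 60 members with 25 nM RA and 50 with 1 µM RA. By comparison Cyp26a1, which encodes an RA-degrading enzyme and is a direct RA target, rose by 1.76 ± 0.051 (SE) on the log2 scale with 25 nM RA and by 2.40 ± 0.050 with 1 µM RA, and Rarb, an RA receptor gene, by 4.53 ± 0.19 and 4.89 ± 0.19.

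Hist1h4m, an H4 gene, showed the largest fold change of the members. Its RPKM was 12.3 and 10.8 in DMSO, 31.6 and 17.3 after 25 nM RA and 13.8 and 15.6 after 1 µM RA. The samples with 25 nM RA lay above all others, but the dishes of that group were far apart. The log2 fold change was 1.07 ± 0.19 (SE) with 25 nM RA (adjusted p = 7.4e-07), 0.34 ± 0.19 with 1 µM RA (adjusted p = 0.25) and -0.73 ± 0.19 between the doses (adjusted p = 0.0076).

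This value depends on how reads were divided between 2 genes. Hist1h4m and Hist1h4n have the same coding sequence and the same stem-loop, shown above, and the deposited files place Hist1h4n (chr13:21811784-21812149) inside Hist1h4m (chr13:21811746-21812150), whereas GENCODE places it on the minus strand with its stem-loop at chr13:21831798-21831813. Of the estimated counts of the pair, 3.90% and 2.67% were assigned to Hist1h4m in DMSO, 8.42% and 5.38% after 25 nM RA and 3.96% and 4.21% after 1 µM RA. Hist1h4n itself had RPKM 335 and 436 in DMSO, 381 and 336 after 25 nM RA and 370 and 392 after 1 µM RA. The pair summed to 347 and 447 RPKM in DMSO, 412 and 353 after 25 nM RA and 383 and 407 after 1 µM RA, and the groups overlapped. The log2 fold change of the summed counts was -0.05 ± 0.090 (SE) with 25 nM RA (95% interval -0.23 to 0.12, adjusted p = 0.89), -0.01 ± 0.090 with 1 µM RA (adjusted p = 0.96) and 0.04 ± 0.090 between the doses (adjusted p = 0.90). The sum, a comparison added after the data had been seen, did not show the rise of Hist1h4m. The sum could not have shown it, since Hist1h4m held only 3.90% and 2.67% of the pair's counts in DMSO. A rise of this size in so small a part would lie within the SE of the sum, so that the sum cannot decide on it.

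Hist1h2bj, an H2B gene (chr13:22043230-22043658), had the largest difference between duplicates. Its RPKM was 122 and 263 in DMSO, 268 and 248 after 25 nM RA and 122 and 262 after 1 µM RA. Replicate 1 of DMSO and replicate 1 of 1 µM RA thus stood far below the other 4 samples, replicate 2 being 2.17 times (DMSO) and 2.15 times (1 µM RA) as high. Hist1h2ag, the H2A gene that lies head to head with it, had 73.4 and 75.5, 85.7 and 66.9, and 76.7 and 82.6 RPKM in the same order, without such a gap. No RA difference of Hist1h2bj was called, with log2 fold changes of 0.42 ± 0.27 (SE, adjusted p = 0.53) and -0.01 ± 0.27 (adjusted p = 0.99). It was called, however, without replicate 2 of DMSO (at both doses), without replicate 2 of 1 µM RA (against DMSO and between doses), and with a replicate block (at 25 nM RA and between doses). Of its coding windows 73.9% were shared with other genes. Hist1h2aa, which with Hist1h2bj and Hist1h4m made up the 3 genes of largest dish difference, had RPKM of only 0.687 to 1.21.

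**Figure D4:**
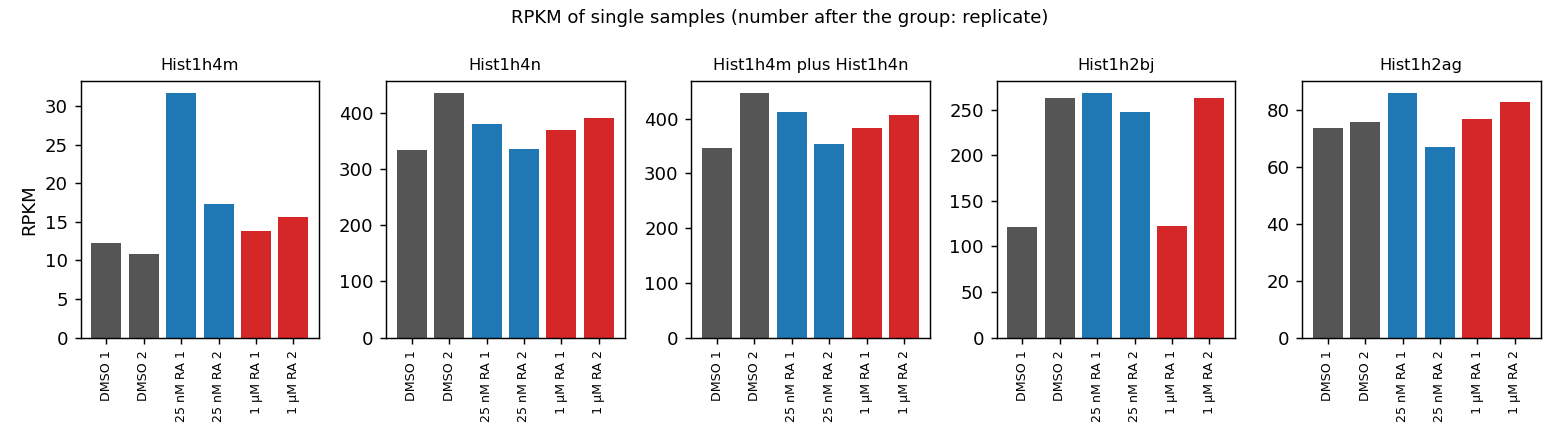
RPKM (vertical axis, from 0) in each sample for Hist1h4m, Hist1h4n, their sum, Hist1h2bj and its head-to-head neighbour Hist1h2ag, with bars for single samples. The Hist1h4m bars are highest with 25 nM RA, the summed bars overlap between groups, and Hist1h2bj is near 122 RPKM in replicate 1 of DMSO and of 1 µM RA and above 240 in the other samples.

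Among the H4 genes, Hist1h4a rose at both doses. Its RPKM was 225 and 187 in DMSO, 261 and 234 after 25 nM RA and 238 and 262 after 1 µM RA, with no overlap between the RA and the DMSO samples. The log2 fold change was 0.26 ± 0.073 (SE, adjusted p = 0.0098) and 0.27 ± 0.073 (adjusted p = 0.0025). Hist1h4j, a low H4 gene, fell by 0.58 ± 0.16 with 1 µM RA (adjusted p = 0.0043), from 21.97 and 28.9 RPKM in DMSO to 16.8 and 17.2, while its samples with 25 nM RA stood at 24.3 and 15.2 RPKM. The most abundant H4 genes did not pass the test at either dose: Hist1h4d had 1092 and 1098 RPKM in DMSO, 1151 and 1092 after 25 nM RA and 990.5 and 1178 after 1 µM RA.

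Of the 17 H2B genes tested, 4 were called higher and 1 lower with 1 µM RA, beside 8.54% and 11.2% of all genes. Hist1h2be had RPKM 718 and 685 in DMSO, 749 and 734 after 25 nM RA and 813 and 805 after 1 µM RA. Both samples with 1 µM RA lay above the other 4, with a log2 fold change from DMSO of 0.19 ± 0.048 (SE, adjusted p = 0.0008). Hist1h2bp had 41.4 and 42.2 RPKM in DMSO, 49.5 and 33.8 after 25 nM RA and 62.9 and 53.3 after 1 µM RA, and rose by 0.47 ± 0.12 over DMSO (adjusted p = 0.0011) and by 0.48 ± 0.12 over 25 nM RA (adjusted p = 0.0051). Hist1h2bm and Hist1h2bb rose by 0.24 ± 0.072 and 0.17 ± 0.057 over DMSO (adjusted p = 0.0076 and 0.019). Each of these calls was lost without replicate 1 of DMSO or without replicate 1 of 1 µM RA. Hist1h2bb was also 0.18 ± 0.057 higher with 1 µM than with 25 nM RA (adjusted p = 0.064).

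Hist1h2ba, which encodes the H2B form of testis, was the H2B gene that fell at both doses. Its RPKM was 30.0 and 36.8 in DMSO, 26.4 and 27.2 after 25 nM RA and 24.8 and 23.4 after 1 µM RA, with no overlap between RA and DMSO samples. It fell by 0.32 ± 0.094 (SE, adjusted p = 0.016) and by 0.47 ± 0.096 (adjusted p = 1.5e-05) on the log2 scale. The H2B gene Hist1h2bf was called lower with 25 nM RA, by -0.24 ± 0.078 (log2, adjusted p = 0.036), at 60.7 and 69.5 RPKM in DMSO and 59.7 and 51.0 with RA. Hist2h2bb, the most abundant, did not pass the test, with log2 fold changes of -0.0036 ± 0.050 and 0.10 ± 0.050 (adjusted p = 0.99 and 0.17).

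No H2A gene was called higher than DMSO at either dose. Of the 14 tested, 4 were called lower at 25 nM RA and 2 at 1 µM RA, beside 3.55% and 11.2% of all genes. With 25 nM RA these were Hist1h2ab, Hist1h2ad, Hist1h2ae and Hist1h2an, with log2 fold changes from -0.45 (Hist1h2ae) to -0.21 (Hist1h2ab). Hist1h2ae had RPKM 67.4 and 97.4 in DMSO, 68.0 and 53.2 after 25 nM RA and 76.8 and 73.2 after 1 µM RA. The groups overlapped, as replicate 1 of DMSO was at the level of the higher 25 nM RA sample, and the call (adjusted p = 0.0073) was lost without replicate 2 of DMSO or replicate 2 of 25 nM RA. Hist1h2ad had 48.9 and 60.6 RPKM in DMSO, 48.7 and 38.5 after 25 nM RA and 41.3 and 45.9 after 1 µM RA, and fell by 0.34 ± 0.10 at both doses (adjusted p = 0.019 and 0.0097). Hist1h2af was called lower with 1 µM RA, at -0.16 ± 0.062 on the log2 scale (adjusted p = 0.057). Every one of these H2A calls was lost without replicate 2 of DMSO. The calls at 25 nM RA were also lost without replicate 2 of that dose, and those at 1 µM RA without replicate 1 of that dose. Hist1h2ab was higher with 1 µM than with 25 nM RA, by 0.25 ± 0.070 (adjusted p = 0.019). At 1 µM RA it was not lower than DMSO, at a log2 fold change of 0.040 ± 0.070. None of the 3 most abundant H2A genes, Hist3h2a, Hist1h2ak and Hist2h2ac, was called.

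Among the H3 genes, Hist1h3e and Hist2h3b were lower and Hist1h3b higher. Hist1h3e had RPKM 163 and 172 in DMSO, 154 and 132 after 25 nM RA and 115 and 138 after 1 µM RA, without overlap between RA and DMSO, and fell by 0.24 ± 0.076 (SE, adjusted p = 0.032) and 0.42 ± 0.076 (adjusted p = 1.4e-06). Hist2h3b (chr3:96268654-96269155) had 73.3 and 71.4 RPKM in DMSO, 70.0 and 61.7 after 25 nM RA and 46.0 and 58.2 after 1 µM RA. Its samples were ordered by dose without overlap, and it fell by 0.48 ± 0.083 with 1 µM RA (adjusted p = 2.2e-07) and by 0.34 ± 0.084 from 25 nM to 1 µM RA (adjusted p = 0.0057). Hist1h3b rose by 0.22 ± 0.069 with 1 µM RA (adjusted p = 0.017), at 259 and 245 RPKM in DMSO and 317 and 272 with RA. Hist1h3f, the most abundant H3 gene, did not pass the test at either dose.

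The linker histone genes had the smallest median absolute log2 fold change of the 5 types at each dose (0.020 with 25 nM RA and 0.013 with 1 µM RA), although the H1 sum with 1 µM RA did not overlap that with DMSO. Hist1h1a, the highest of them, had RPKM 975 and 999 in DMSO, 1015 and 986 after 25 nM RA and 1080.1 and 1076 after 1 µM RA. Both samples with 1 µM RA lay above the rest, and the log2 fold change was 0.12 ± 0.047 (SE, adjusted p = 0.067). None of the remaining 5 H1 genes was called in any comparison, and their coding windows were the least shared of all types.

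**Figure D5:**
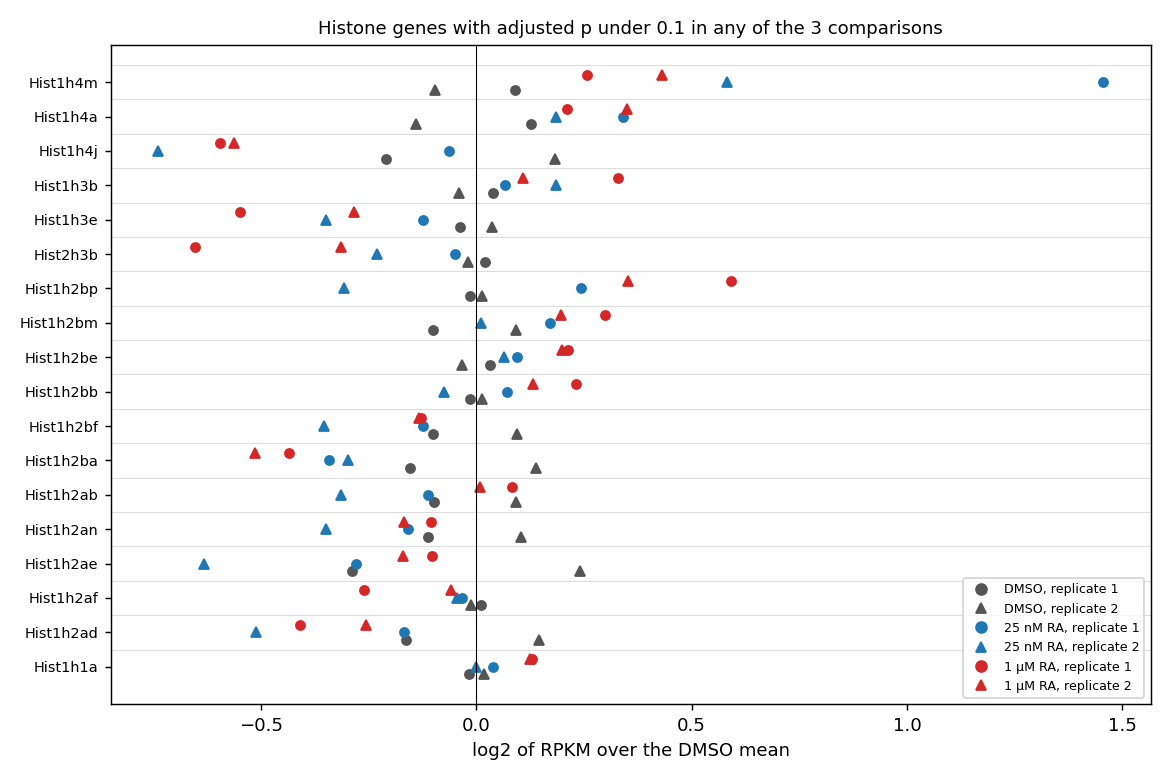
RPKM relative to the DMSO mean on a log2 scale (horizontal axis) in each of the 6 samples for the 18 members with an adjusted p under 0.1 in any comparison, grouped by type (vertical axis), with colours for the group and symbols for the replicate. Most members lie within 0.5 of the DMSO mean, and Hist1h4m with 25 nM RA is the farthest point to the right.

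Which members were called depended on single dishes. Of the 9 calls with 25 nM RA, 1 (Hist1h4m) was made whichever library was left out, and that call was lost in the sum with Hist1h4n. Of the 13 calls with 1 µM RA, 5 were (Hist1h2ba, Hist1h2be, Hist1h2bp, Hist1h3e and Hist2h3b), and of the 5 calls between doses 0 were, where 12 members had an unadjusted p under 0.05 by edgeR's likelihood ratio test. The sum with Hist1h4n could not show a rise of Hist1h4m, which is a small part of the pair. DESeq2 called 1, 7 and 2 members in these comparisons. Without replicate 2 of DMSO the members called with 25 nM RA numbered 2, without replicate 2 of 25 nM RA 3, and without replicate 1 of DMSO 16.

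The mRNAs of factors that make and process histone mRNA were compared with the same test. Of 21 listed genes of histone mRNA transcription and 3' processing, 0 were called at 25 nM RA by the edgeR likelihood ratio test and 0 by its quasi-likelihood test (medians of the log2 fold change 0.02 for the list and -0.00051 for all genes). With 1 µM RA 3 were higher and 2 lower, beside 19.7% of all genes called in either direction, so that the list's share was near that of all genes. Slbp, which encodes the stem-loop binding protein, had RPKM 83.4 and 85.9 in DMSO, 86.5 and 86.6 after 25 nM RA and 96.2 and 90.01 after 1 µM RA, and rose by 0.13 ± 0.053 (SE, adjusted p = 0.073) at 1 µM. Casp8ap2, whose product acts in histone transcription at histone locus bodies, rose by 0.16 ± 0.057 (adjusted p = 0.032) and Mif4gd, which encodes a translation partner of SLBP, by 0.21 ± 0.068 (adjusted p = 0.018). Upf1, which encodes a helicase of mRNA decay, fell by 0.20 ± 0.050 (adjusted p = 0.0012) and Cramp1l by 0.33 ± 0.063 (adjusted p = 5.3e-06). Cramp1l was also lower with 1 µM than with 25 nM RA.

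Replication-independent histone variants are made outside S phase as well, mostly from polyadenylated mRNAs. H2afx is an exception, known to give a stem-loop mRNA without a poly(A) tail besides a polyadenylated one. Of 11 tested, 1 was called with 25 nM RA and 4 with 1 µM RA, beside 8.05% and 19.7% of all genes. H2afx was lower at both doses, with RPKM 232 and 236 in DMSO, 225 and 197 after 25 nM RA and 193 and 207 after 1 µM RA (log2 fold changes -0.16 ± 0.058 and -0.23 ± 0.058, adjusted p = 0.093 and 0.00084). With 1 µM RA H2afy, a macroH2A gene, and H3f3a, an H3.3 gene, were higher by 0.17 ± 0.049 and 0.14 ± 0.049 (adjusted p = 0.007 and 0.027). H2afy2, also a macroH2A gene, was not called (0.041 ± 0.051 with 1 µM RA). The linker variant H1fx was lower with 1 µM RA, at a log2 fold change of -0.37 ± 0.090 (adjusted p = 0.00051). The most abundant variant, H2afz, had 896 to 999 RPKM in the 6 samples and did not pass the test. None of the variants was called between the doses (0 by edgeR's likelihood ratio test).

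Markers gave the state of the cells beside these values. The NMP marker T was at 367 to 380.1 RPKM and Sox2 at 5.2 to 17.3 RPKM, whereas the neural markers Sox1, Pax6 and Neurog2 stayed below 1 RPKM. Of 7 NMP markers tested, 5 were called higher and 1 lower with 25 nM RA (4 and 1 with 1 µM RA). Over all genes 8.05% (25 nM RA) and 19.7% (1 µM RA) were called in either direction. Sox2, Nkx1-2 and Cdx1 were higher at both doses. The ESC marker Pou5f1 was still at 432 to 471 RPKM and Nanog at 18.1 to 20.8 RPKM, and the endoderm markers Sox17 and Foxa2 were lower at both doses. None of the 5 ESC markers was called (0 by edgeR's likelihood ratio test).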

How the data were processed

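Total RNA depleted of ribosomal RNA was sequenced from 6 dishes of NMPs in 3 groups of 2. Per the study's methods the authors aligned reads to mm10 with TopHat and divided them among RefSeq transcripts by expectation-maximization, and the processing notes name TopHat2 2.0.13 and Partek 6.6. The estimated counts deposited by the authors are not normalized, and the RPKM values deposited by the authors are scaled by transcript length and reads per sample. The library kit marks strand, but whether counting used strand is not given in the sources used here.

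Estimated counts and RPKM of 30352 transcript rows were summed per gene (70 rows for the 64 members). After rounding, the counts went into edgeR 4.0.16, in R 4.3.3 (TMM factors 0.989 to 1.01, filterByExpr, likelihood ratio test named in the methods, all 6 samples, no block, Benjamini-Hochberg over 15143 genes, called at 0.1). Fold changes are log2 with standard errors, and intervals are the estimate ± 1.96 SE. RPKM sums were compared without a test. The scripts were tested on simulated data, with 200 genes changed by a fold of 2 or of 1.25 with 25 nM RA. The likelihood ratio test called 100% and 79% of these genes at an adjusted p under 0.1. Of its calls, 14.9% and 17.7% were unchanged genes, more than the threshold of 0.1 aims at. Samples were not paired by replicate number, as the labels give only a number.

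Named were Hist1h4m, the 3 members of highest RPKM in each type, all called members and the 3 with the largest difference between duplicates. In the other lists, called genes and the 2 of highest RPKM were candidates for naming. Neighbours, members at low counts and testis forms were named after their values were seen. The members and lists were chosen with earlier results of these data known.

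As alternatives, the quasi-likelihood test of edgeR, the Wald test and the size factors of DESeq2 1.42.0, scaling by total counts, looser and stricter count filters, fits of 4 samples, a replicate block, a threshold of 0.05, transcripts left unsummed and each library left out were run. Stem-loops and coding sequences came from GENCODE M21, promoters from RefSeq GRCm38.p6. Python 3.11.15 with numpy 2.4.6, pandas 2.3.3 and matplotlib 3.10.9 was used for tables and figures.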

Additional observations from a re-analysis of the deposited data

How the results depend on the processing

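With 2 dishes a group and members that share reads, calls of single members were the least settled results. The log2 ratio of summed RPKM (0.0078 with 25 nM RA, 0.043 with 1 µM RA) could be changed only by rescaling, by leaving out Hist2h2bb or by leaving out a library. It moved by less than the spread between dishes in each, but its sign was not fixed. At 25 nM RA it was -0.0056 with summed counts per library size, -0.035 without replicate 1 of DMSO and -0.044 without replicate 1 of 25 nM RA, and at 1 µM RA it was -0.00028 without replicate 1 of DMSO, the highest values being 0.058 and 0.088. The counts of members called (9 with 25 nM RA, 13 with 1 µM RA, 5 between doses) were the same by the quasi-likelihood test and with DESeq2's size factors. They fell to 1, 7 and 2 with the DESeq2 Wald test and to 1, 6 and 0 with transcripts left unsummed. Leaving out each library in turn, with a lone dish assumed to vary like the other groups, gave 2 to 16, 10 to 21 and 2 to 15. With 25 nM RA the count was 16 without replicate 1 of DMSO, 2 without replicate 2 of DMSO and 3 without replicate 2 of 25 nM RA. With 1 µM RA it was 21 without replicate 2 of 1 µM RA, and between doses it was 2 without replicate 1 and 15 without replicate 2 of 1 µM RA. The cause was not tested. With Hist1h4m and Hist1h4n summed, an alternative added after seeing the data, the log2 fold change of the pair was -0.052 (25 nM RA) and 0.041 (between doses). Hist1h4m alone had 1.07 and -0.73. Most counts of the pair were those of Hist1h4n, so that the sum cannot show how Hist1h4m alone behaved. In the other alternatives no fold change of a called member reversed. Same-numbered samples showed little common deviation over all genes. The correlations were -0.0455, 0.0499 and -0.0595 for DMSO with 25 nM RA, DMSO with 1 µM RA and the 2 doses. Over the 60 members they were -0.194, 0.242 and -0.0548 in the same order. These values cannot show whether same-numbered dishes were handled together, and the labels give only a number. A replicate block gave 10, 13 and 6 members and added Hist1h2bj with 25 nM RA and between doses. Over all genes the counts called, 1219, 2983 and 516, became 567, 1594 and 158 with DESeq2 and 744, 1639 and 362 with transcripts unsummed. Between doses they became 336 with the quasi-likelihood test and 340 at a threshold of 0.05. Leaving out a library gave 799 to 1345, 1922 to 2838 and 205 to 577.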

Other observations

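Of the 20 listed histone chaperones, Ubn2, a subunit of the HIRA complex that deposits H3.3, was lower with 25 nM RA (log2 fold change -0.19 ± 0.065 SE, edgeR likelihood ratio test, adjusted p = 0.06) and with 1 µM RA (-0.32 ± 0.066, adjusted p = 2.8e-05). Cabin1, of the same complex, was lower with 1 µM RA (-0.22 ± 0.053, adjusted p = 0.00055) and lower with 1 µM than with 25 nM RA (adjusted p = 0.096). The other listed subunits of that complex were not called, with log2 fold changes of -0.0027 and -0.081 for Hira (adjusted p = 0.99 and 0.41) and 0.022 and 0.0022 for Ubn1 (adjusted p = 0.93 and 0.99). In all, 1 chaperone was called with 25 nM RA and 3 with 1 µM RA, beside 8.05% and 19.7% of all genes. Nasp, a chaperone of H3-H4 and linker histones, had 192 and 193 RPKM in DMSO, 200 and 210 after 25 nM RA and 218 and 209 after 1 µM RA, and was higher at 1 µM (0.14 ± 0.051, adjusted p = 0.041). Of 30 genes of S phase and DNA replication, 1 was called with 25 nM RA and 3 with 1 µM RA, lower shares than those of all genes. E2f2 was called higher with 25 nM RA (0.37 ± 0.13, adjusted p = 0.051). With 1 µM RA Fen1 and Cdc6 were higher (0.15 ± 0.049 and 0.13 ± 0.052, adjusted p = 0.016 and 0.083) and E2f1 was lower (-0.24 ± 0.084, adjusted p = 0.035). The list's median log2 fold change was 0.0088 with 25 nM RA and 0.048 with 1 µM RA, beside -0.00051 and 0.0013 over all genes. Of the 3 non-coding RNAs tested as other RNAs that total RNA libraries keep, Terc, the telomerase RNA, was lower with 1 µM RA (-0.18 ± 0.073, adjusted p = 0.069).

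Among the members, 11 pairs of an H2A and an H2B gene lay head to head with fewer than 500 bases between their starts, the gap being 172 to 305 bases. In some pairs the levels were similar, the ratio of H2B to H2A RPKM being 0.941 for Hist1h2an and Hist1h2bp, 1.13 for Hist1h2ai and Hist1h2bl, and 1.27 for Hist1h2ad and Hist1h2bf. In others they were far apart. Hist2h2ac had 215 RPKM beside 0.675 for Hist2h2be, Hist3h2a 323 beside 4.82 for Hist3h2bb-ps, and Hist1h2ak 306 beside 17.9 for Hist1h2bn. Of these, Hist3h2bb-ps is a pseudogene by its symbol and has no coding transcript model. In the opposite direction, Hist1h2ae had 72.7 RPKM beside 285 for Hist1h2bg. This ratio ran from 0.0031 to 28.5 over the pairs, and H2B was the higher gene in 7 of them. The lowest ratio is that of Hist2h2be, whose RPKM is scaled by a transcript of 2618 bases. The highest is that of Hist1h2ba over Hist1h2aa, which had only 0.985 RPKM. Hist2h2be, for which the files give a long transcript, was also among the 2 members with 60 bases or more after the stop codon and no stem-loop found there. Of the 18 members called in any comparison, 17 lie on chromosome 13, which holds 50 of the 60 members tested.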
